A study of Mus musculus with 6 samples.

Results

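The Ly6 family encodes small surface proteins held in the membrane by a glycosylphosphatidylinositol (GPI) anchor, and several of them name the cells of the myeloid lineage. Antibodies to Ly6C and Ly6G separate monocytic from granulocytic cells, and the Gr-1 antibody, long used to define myeloid-derived suppressor cells, binds Ly6G and, less strongly, Ly6C. The 6 members described here are Ly6c1 and Ly6c2 (both read as Ly6C), Ly6g (the neutrophil antigen Ly6G), Ly6a (the stem cell antigen Sca-1), Ly6e (a broadly expressed antigen of thymocytes and other immature cells) and Ly6d (an antigen of committed B cell progenitors and B cells), out of 32285 genes in the files. They were chosen by symbol once the log2 fold changes of Ly6c1 and Ly6c2 between groups in granulocyte-monocyte progenitors (GMPs) were known, and all 6 are described, with no threshold. Their values in GMPs are therefore given as a description, without a test. The tests below concern other cells, in which the members had not been chosen, although those cells came from the same mice.

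The cells were bone marrow cells of BALB/c mice aged 10 weeks, enriched for the progenitor receptor c-Kit and measured by droplet single-cell RNA sequencing. The 3 groups of 3 mice were non-tumor-bearing mice (NTB), mice with the 4T1 mammary tumor given DPBS (vehicle), and mice with the 4T1 tumor given brequinar (BRQ), an inhibitor of the pyrimidine synthesis enzyme DHODH, at 10 mg/kg for 2 weeks. BALB/c is the strain from which 4T1, a mouse mammary carcinoma line, was derived. Each of 3 pools held 1 mouse of each group, marked by a hashtag antibody. Because the cells were enriched for c-Kit, the mature cells among them are those that remained after enrichment and do not stand for the whole marrow.

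The pools held 11441 to 14297 barcodes each, of which 9593 to 11994 passed the quality limits given below. In all, 15966 were kept as singlets of a known mouse, with 382 to 2780 per mouse, and 15704 of them fell into named classes. The others that passed the limits were hashtag doublets or had no hashtag call. Between 38 and 48 barcodes were shared by any 2 pools. Classes were named from marker genes after clustering without the 6 members, and GMPs were the 3916 cells in which the natural log of 1 plus Ms4a3 counts per 10000 exceeded 3, whatever their cluster. Ms4a3 marks GMPs and their offspring. Of 3733 singlets within 0.25 of that limit, 1988 lay above it, so the limit divides a range rather than a separate cell type. Levels (CPM) are counts of unique molecular identifiers (UMIs) summed over the cells of a class in each mouse and scaled to a total of 1000000 per sum, for classes of at least 20 cells in that mouse. Log2 fold changes come from edgeR fits with TMM scaling, so they can differ slightly from ratios of CPM, and fewer cells with a transcript cannot be told apart from fewer copies per cell in such sums.

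The 6 genes lie within 397.1 kb of chromosome 15 (GRCm38, the assembly also called mm10). Ly6d lies at chr15:74762056-74763620 on the minus strand, Ly6e at chr15:74955051-74959905 on the plus strand, Ly6a at chr15:74994877-74998031 on the minus strand, Ly6c1 at chr15:75044018-75048830 on the minus strand, Ly6c2 at chr15:75108158-75111970 on the minus strand and Ly6g at chr15:75155240-75159126 on the plus strand. All 6 are annotated as protein-coding. Ly6c1 and Ly6c2 are separated by 59.3 kb and are nearly the same gene. Their reference transcripts of 844 and 822 bases were identical at 802 of 822 aligned bases (97.6%), and their last 300 bases, where 3' reads fall, at 287 of 293 (98.0%). How reads were split between them is therefore uncertain, and the text gives both genes and, for levels across classes, their sum. The reference is of the C57BL/6 strain, and the share of reads lost to differences in the BALB/c sequence was not tested.

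Ly6c1, Ly6c2 and Ly6g moved together in neutrophil-like cells (below), so the reference sequence at their starts is shown, from 250 bases before to 50 bases after a RefSeq transcript start (GRCm38.p6), 5' to 3' on the strand of the gene. The table holds 2 such windows for each of the 3 genes. Capitals mark the letters GAGGAA or their reverse complement TTCCTC (the core of the motif of PU.1, a myeloid transcription factor), TATAAA and CCAAT. The windows are chr15:75048788-75049087 on the minus strand (Ly6c1), chr15:75111922-75112221 on the minus strand (Ly6c2) and chr15:75155079-75155378 on the plus strand (Ly6g).
Ly6c1: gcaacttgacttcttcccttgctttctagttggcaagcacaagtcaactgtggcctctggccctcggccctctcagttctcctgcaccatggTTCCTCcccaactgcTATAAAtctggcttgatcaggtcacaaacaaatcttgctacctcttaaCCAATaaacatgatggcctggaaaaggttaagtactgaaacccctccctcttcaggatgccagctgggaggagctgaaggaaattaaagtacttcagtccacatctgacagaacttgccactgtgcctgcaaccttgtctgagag
Ly6c2: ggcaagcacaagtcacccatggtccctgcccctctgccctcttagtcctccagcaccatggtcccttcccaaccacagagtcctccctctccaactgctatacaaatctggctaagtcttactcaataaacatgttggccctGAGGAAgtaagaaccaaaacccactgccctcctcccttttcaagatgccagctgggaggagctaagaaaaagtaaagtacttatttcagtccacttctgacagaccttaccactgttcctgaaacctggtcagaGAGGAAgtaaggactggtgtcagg
Ly6g: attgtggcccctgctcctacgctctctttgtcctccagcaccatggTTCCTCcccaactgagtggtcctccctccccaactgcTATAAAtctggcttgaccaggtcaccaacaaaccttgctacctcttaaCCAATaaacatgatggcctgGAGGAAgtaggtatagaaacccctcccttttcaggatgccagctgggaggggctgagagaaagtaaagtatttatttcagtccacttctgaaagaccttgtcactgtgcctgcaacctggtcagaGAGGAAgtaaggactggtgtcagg

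The Ly6c1 and Ly6g windows shown were identical at 221 of 253 aligned bases (87.4%), Ly6c2 and Ly6g at 233 of 276 (84.4%), and Ly6c1 and Ly6c2 at 208 of 266 (78.2%). GAGGAA, on either strand, occurred in all 6 windows of the 3 genes, beside 28.28% of 32851 windows of the same length in the RefSeq table. The windows of each gene overlap, and those of the 3 genes resemble each other, so the 6 are not independent. Whether any motif takes part in the changes of these genes was not tested. TATAAA and CCAAT occurred in the Ly6c1 and Ly6g windows shown and in neither Ly6c2 window, beside 13.62% and 37.41% of all windows. The letters of 6 other motifs, searched on both strands, were found in none of the windows: the gamma interferon-activated site (TTCNNNGAA, 8.30% of all windows), the interferon-stimulated response element (3.44%), the ETS-IRF composite (2.72%), C/EBP (TTGCNNCAA, 2.08%), the motif of GATA factors, spelled AGATAA (11.18%), and the E-box, spelled CACGTG (7.15%). The longest run present in windows of all 3 genes, in the other Ly6c1 window and in the Ly6c2 and Ly6g windows shown, was 22 bases and holds the GAGGAA letters.
Shared run: gaGAGGAAgtaaggactggtgt

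Ly6c1, Ly6c2, Ly6a and Ly6d had their highest mean in B cell-like cells, Ly6g in neutrophil-like and Ly6e in basophil/mast-like cells. The B cell-like class joined cluster 18, led by Ebf1 and Vpreb1, and cluster 19, led by Igkc and Jchain, and its means are of both together. Ly6c1 and Ly6c2 together were at 858 CPM ± 323 (SD, n = 6 mice) in B cell-like cells, 745 ± 165 (n = 9) in monocyte/MDP-like cells, 299 ± 124 (n = 9) in neutrophil-like cells and 172 ± 83.2 (n = 9) in GMPs. The ranges of B cell-like and monocyte/MDP-like cells overlapped (554 to 1452 and 525 to 998 CPM), while HSC/MPP-like cells, the stem and multipotent progenitors, were at 8.27 ± 4.10 (n = 8), with every mouse below every GMP value. Within the neutrophil-like class the pair was at 778 ± 224 CPM (n = 7) in cluster 9 and at 184 ± 76.0 (n = 8) in cluster 4, without overlap between these 2 clusters. The Ly6c1 share of the summed Ly6c counts had a median of 33.6% in GMPs, 33.2% in neutrophil-like and 33.5% in monocyte/MDP-like cells, and lay between 28.2% and 39.2% in the 27 sums of these classes.

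Ly6g was concentrated in neutrophil-like cells, at 672 CPM ± 232 (n = 9, range 390 to 1007), against 14.5 ± 6.49 in monocyte/MDP-like cells, 12.9 ± 5.18 in GMPs and 2.90 ± 1.06 in GMP-like cells under the Ms4a3 limit (n = 9 each). Among the neutrophil-like clusters it was at 2569 ± 430 (n = 7) in cluster 9, which had Mmp8 and Ifitm6 among its leading genes, at 1059 ± 230 (n = 8) in cluster 3 (Ltf, Camp and Ngp, genes of secondary granules), at 930 ± 371 (n = 8) in cluster 1 (Il1b, Cxcr2 and Wfdc17), and at 97.2 ± 49.5 (n = 8) in cluster 4 (Fcnb and Camp). Clusters 3 and 1 overlapped over most of their range, and cluster 9 was above, and cluster 4 below, every value of the others. With each cell thinned to 3000 UMIs, 59.7% of 2901 neutrophil-like cells held a Ly6g UMI (exact 95% interval 57.9% to 61.5%), against 58.2% of all 4538 cells before thinning. Erythroid/MEP-like cells, which should lack Ly6g, stood at 4.53% of 464 thinned cells (2.82% to 6.84%). The shares in monocyte/MDP-like cells (2.72%), GMPs (2.19%) and HSC/MPP-like cells (1.81%) were below that. GMP-like cells under the limit were lower still, at 0.789% of 2916 (0.501% to 1.18%), and megakaryocyte-like cells were at 1.05% of 191 (0.127% to 3.73%). The erythroid/MEP-like share is therefore not the lowest, and whether monocyte/MDP-like cells, GMPs and HSC/MPP-like cells hold Ly6g above background was not settled. Lymphoid progenitor-like cells, at 13.7% of 117 thinned cells (8.02% to 21.3%) and 133 CPM ± 41.6 (n = 2), and macrophage-like cells, at 15.8% of 76 (8.43% to 26.0%) and 68.4 ± 26.2 (n = 3), were above the erythroid/MEP-like share. The median depth before thinning was 4823 UMIs in neutrophil-like and 18611 in erythroid/MEP-like cells, and 1637 neutrophil-like cells were too shallow to be thinned.

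Ly6e was measured in every class. It was highest in basophil/mast-like cells (1165 CPM ± 83.3, n = 3) and monocyte/MDP-like cells (993 ± 157, n = 9), whose ranges overlapped, followed by eosinophil-like cells (891 ± 203, n = 4), GMPs (786 ± 119, n = 9) and GMP-like cells under the limit (733 ± 118, n = 9), which overlapped as well. Neutrophil-like cells were lower, at 343 ± 42.4 (n = 9), and HSC/MPP-like cells lower again, at 208 ± 34.9 (n = 8), without overlap between them. The order of the neutrophil-like clusters was that of Ly6g turned around at its ends: Ly6e was at 511 ± 126 (n = 8) in cluster 4 and 143 ± 52.9 (n = 7) in cluster 9.

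Ly6a and Ly6d were found in few of the cells sampled. Ly6d was at 368 CPM ± 188 (n = 6) in B cell-like cells and 28.8 ± 5.29 (n = 2) in lymphoid progenitor-like cells, and its mean was at most 0.303 in the other named classes. The B cell-like values by mouse were 179 and 652 CPM in NTB pools 2 and 3, 171 in vehicle pool 1, and 511, 337 and 360 in BRQ pools 1, 2 and 3. The 2 B cell-like clusters differed: summed over mice, cluster 19, led by immunoglobulin genes such as Igkc and Jchain, held 634 CPM of Ly6d (exact 95% Poisson interval 589 to 682, counting error only) and 167 of Ly6a (144 to 192), whereas cluster 18, led by Ebf1 and the pre-B cell gene Vpreb1, held 27.7 of Ly6d (17.7 to 41.2) and 1.15 of Ly6a (0.029 to 6.43). With 2 NTB, 1 vehicle and 3 BRQ mice that had 20 B cell-like cells, no groups were tested in this class.

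Sca-1 is part of the standard gate for mouse stem cells, yet Ly6a was low in the HSC/MPP-like class, at 6.49 CPM ± 1.98 (n = 8), below the 101 ± 63.8 (n = 6) of B cell-like cells. After thinning to 3000 UMIs, 2.21% of 996 HSC/MPP-like cells held a Ly6a UMI (exact 95% interval 1.39% to 3.33%), with 4.44% of 1037 before thinning at a median depth of 7924 UMIs, while 0 of 464 thinned erythroid/MEP-like cells held one, where a count of 0 allows up to 3 cells, or 0.647% (exact 95% upper limit 0.792%). The HSC/MPP-like share was therefore above that background, and the GMP share of 0.156% was not. BALB/c mice are known for weak Sca-1 staining of marrow progenitors, and the part of the strain or of the reference in these values was not tested.

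**Figure D1:**
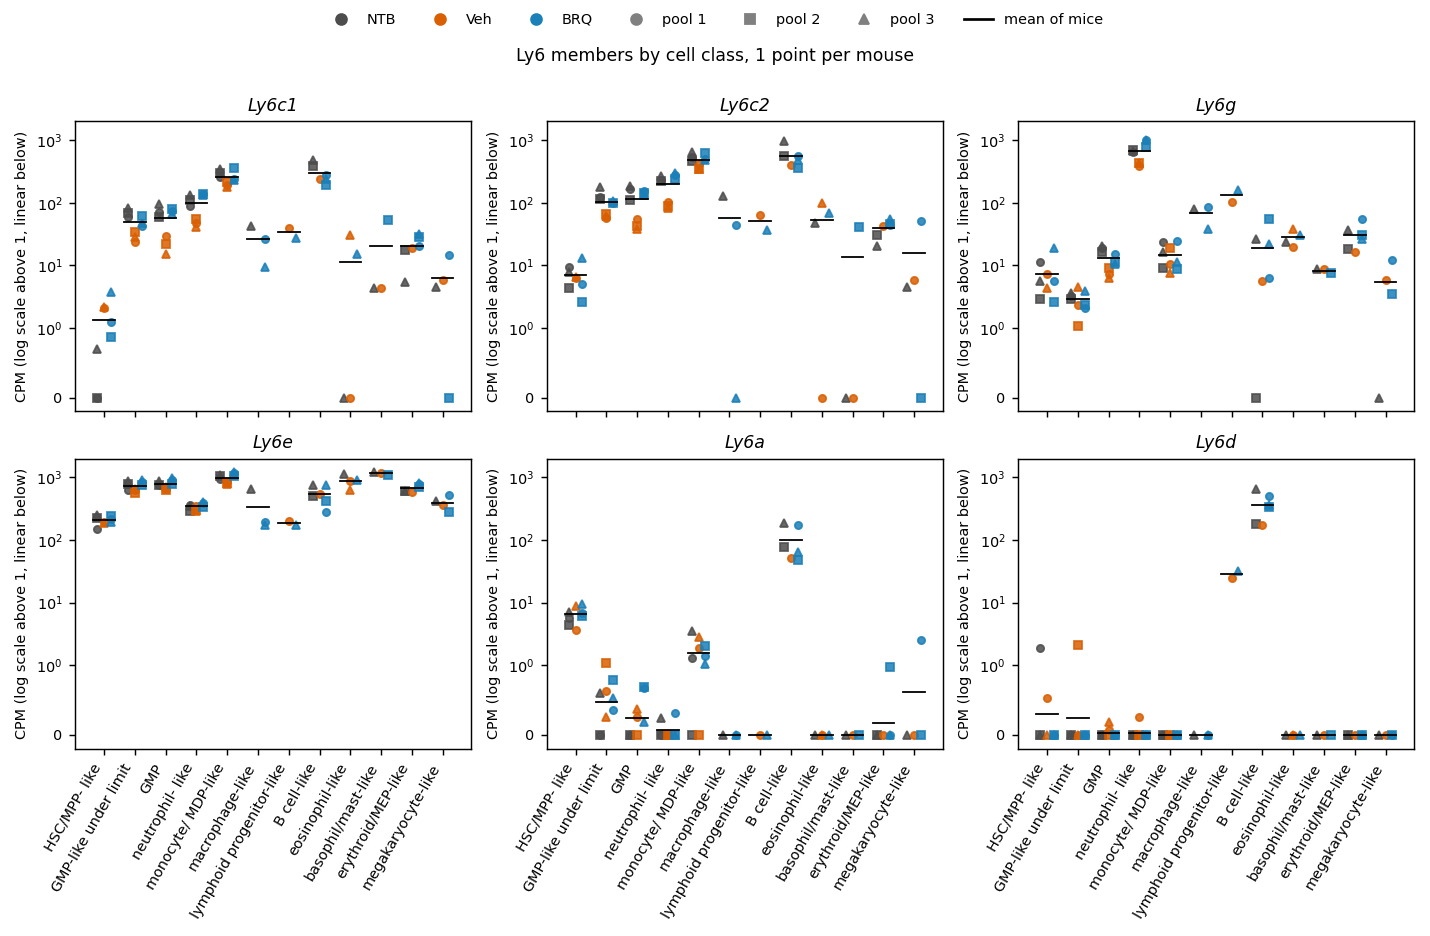
Level of each Ly6 member in CPM (y axis, log scale above 1 and linear below) in 12 cell classes (x axis), with 1 point per mouse with at least 20 cells, colored by group and shaped by pool, and a line at the mean of mice. Ly6g stands highest in neutrophil-like cells (390 to 1007 CPM), Ly6d in B cell-like cells (171 to 652 CPM), and Ly6e is above 100 CPM in every class.

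Likeness was measured as Pearson's r of log CPM over 72 sums of 12 classes and 9 mice, among 10829 genes. These sums share mice and libraries, so r describes the pattern across classes. Ly6c1 and Ly6c2 were each other's nearest gene (r = 0.906), followed for Ly6c1 by Slpi (0.772), Gas7 (0.707), Clec5a (0.662) and Sec11c (0.653), and for Ly6c2 by Slpi (0.760), F13a1 (0.649), Clec5a (0.640) and Cd52 (0.636). Ly6g was nearest to Lcn2 (0.926), Ltf (0.921), Fpr2 (0.898), Ifitm6 (0.898) and Mmp25 (0.895), of which Lcn2 and Ltf encode granule proteins of neutrophils. Ly6a was nearest to Cldn7 (0.875), Tnfrsf13c (0.875), Hid1 (0.874), Slamf7 (0.873) and Epcam (0.872), and Ly6d to Chst3 (0.974), Mzb1 (0.974), Pax5 (0.967), Ebf1 (0.958) and Il7r (0.951). Ly6e was nearest to Tmem258 (0.721), Ndufa1 (0.720), Stt3b (0.710), Sec61g (0.709) and Atp5k (0.706). Among the members, r was 0.8 for Ly6a and Ly6d and 0.243 for Ly6c1 and Ly6g.

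In GMPs, where the members were chosen, Ly6c1 was at 70.1, 59.6 and 94.7 CPM in NTB pools 1, 2 and 3, at 29.9, 21.7 and 15.5 in vehicle mice and at 73.1, 81.0 and 66.3 in BRQ mice. Ly6c2 was at 168, 112 and 182 CPM in NTB, 55.3, 42.7 and 38.1 in vehicle mice and 153, 146 and 135 in BRQ mice. For both genes the 3 vehicle mice lay below all 6 others, as did those of 9.11% of 10331 genes, and NTB and BRQ mice overlapped. The log2 fold change (SE) from NTB to vehicle was -1.62 (0.20) for Ly6c1 and -1.67 (0.16) for Ly6c2, from vehicle to BRQ 1.41 (0.17) and 1.42 (0.14), and between BRQ and NTB -0.21 (0.18) and -0.25 (0.14). NTB mice gave 88, 135 and 177 GMPs, vehicle mice 1017, 95 and 289, and BRQ mice 806, 656 and 653, and the median depth of a mouse was, in that order of groups, 10828 to 11581, 14737 to 17966 and 12168 to 15795 UMIs.

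The clusters that held the GMPs differed in share between groups. Cluster 0 held 57.6% to 61.4% of the GMPs of an NTB mouse, 35.8% to 50.5% of a vehicle mouse and 19.45% to 43.75% of a BRQ mouse, and cluster 2 held 16.4% to 27.4%, 32.9% to 41.05% and 15.5% to 37.2%. Cluster 6 held 0% to 3.4% in NTB, 1.1% to 4.8% in vehicle mice and, in BRQ mice, 8.7%, 9.45% and 48.4%, the last in pool 3. The Ly6c pair was lower in vehicle mice within GMPs of a single cluster as well. In GMPs of cluster 0, led by Elane, Nkg7 and Prtn3, Ly6c2 was at 191, 138 and 195 CPM in NTB, 43.3, 46.8 and 31.3 in vehicle mice and 161, 148 and 157 in BRQ mice, a log2 change of -2.11 and then 1.84. In GMPs of cluster 2, led by Fkbp11, it was at 134, 96.7 and 155 CPM in NTB, 58.8, 42.7 and 49.7 in vehicle mice and 116, 128 and 86.0 in BRQ mice, a log2 change of -1.22 and then 0.92. Ly6c1 changed by -1.94 and 1.68 in cluster 0 and by -1.37 and 0.91 in cluster 2. In both clusters the vehicle mice were below the other 6, as for 7.11% and 5.02% of all genes tested there. The summed monocyte markers (all 12 detected) were also lower in vehicle GMPs, at 248 to 266 CPM against 330 to 353 in NTB and 346 to 486 in BRQ mice. So were those of basophil and mast cells (7 of 9 detected, Cma1 and Tpsb2 at 0), at 81.8 to 108 CPM against 123 to 157 and 181 to 199, and of lymphoid progenitors (all 9 detected), at 66.9 to 77.1 against 82.6 to 118 and 102 to 150. B cell markers (9 of 10 detected, Ms4a1 at 0) were at 31.2 to 35.8 CPM against 55.1 to 67.4 and 38.0 to 50.8. Neutrophil markers (all 14 detected) were highest in NTB GMPs, at 48600 to 52100 CPM against 35500 to 39000 in vehicle and 28400 to 39900 in BRQ mice. Macrophage markers (all 9 detected) were at 377 to 398, 242 to 251 and 172 to 300 CPM in that order of groups. The part of these markers in the result was not tested.

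Ly6g in GMPs was at 19.0, 16.4 and 20.8 CPM in NTB, 7.40, 9.03 and 6.22 in vehicle mice and 15.2, 11.4 and 10.6 in BRQ mice. Its mean was 70.4 CPM (n = 5 mice) in GMPs of the neutrophil-like cluster 4, against 3.29 (n = 9), 2.67 (n = 9) and 2.87 (n = 4) in GMPs of clusters 0, 2 and 6. Ly6g was at 30.6 CPM ± 13.9 (n = 6) in erythroid/MEP-like cells and at 2.90 ± 1.06 (n = 9) in GMP-like cells under the limit. GMPs as a whole lay between these 2 levels, so the part of background in them was not settled. The mean of GMPs in cluster 4 was above both. Cluster 4 made up 9.6% to 13.6% of the GMPs of an NTB mouse, 5.5% to 9.7% of a vehicle mouse and 6.4% to 8.8% of a BRQ mouse. The log2 change from vehicle to BRQ was 0.58 (SE 0.18), -0.26 without barcodes that the doublet caller Scrublet marked and -0.069 in all cells of the GMP-like clusters, so its direction depended on which cells were counted. Ly6e in GMPs differed little, at 750 to 865 CPM in NTB, 635 to 704 in vehicle mice and 797 to 993 in BRQ mice, with vehicle below the others.

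**Figure D2:**
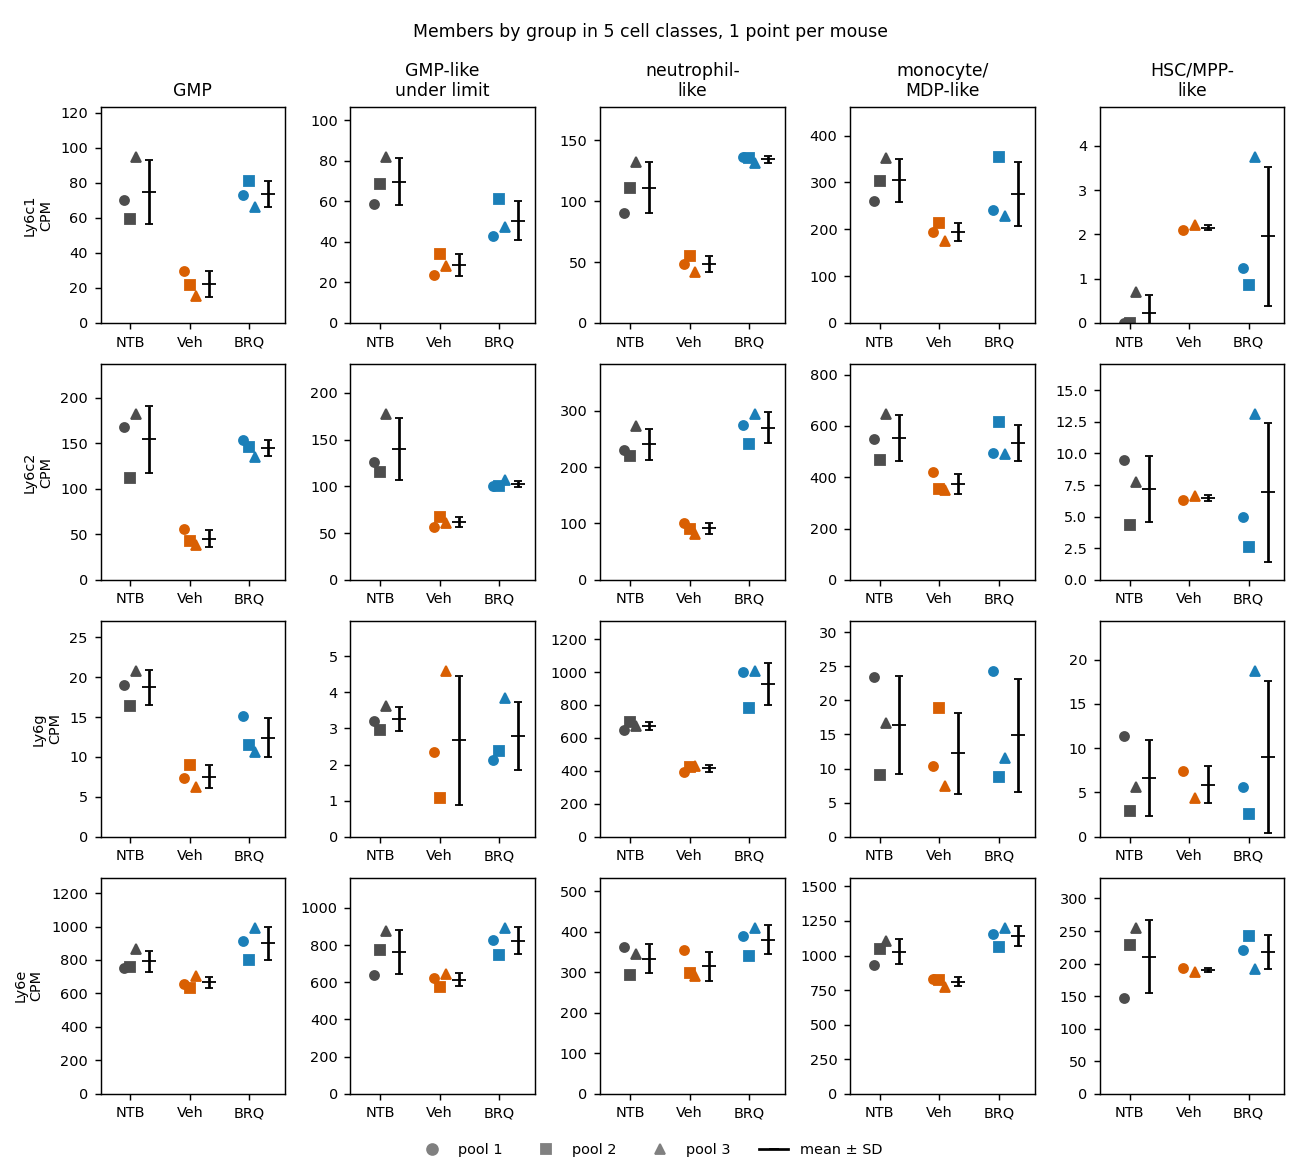
CPM of Ly6c1, Ly6c2, Ly6g and Ly6e (rows, y axes from 0) in 5 cell classes (columns) for NTB, vehicle (Veh) and BRQ mice, with 1 point per mouse, shaped by pool, and the mean ± SD at its right. In neutrophil-like cells the vehicle mice lie below all others for Ly6c1, Ly6c2 and Ly6g (for Ly6g at 390 to 428 CPM, against 647 and above), and in HSC/MPP-like cells, with 8 mice, the groups overlap for Ly6g and Ly6e.

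Neutrophil-like cells carried the changes of 3 members at once. Ly6c1 was at 90.4, 111 and 132 CPM in NTB pools 1, 2 and 3, at 48.3, 54.7 and 41.8 in vehicle and at 136, 136 and 131 in BRQ mice. Ly6c2 was at 230, 220 and 272 CPM in NTB, at 101, 90.4 and 81.8 in vehicle and at 275, 241 and 294 in BRQ mice. Ly6g was at 647, 699 and 671 CPM in NTB, at 390, 425 and 428 in vehicle and at 997, 780 and 1007 in BRQ mice. In all 3 genes every vehicle mouse was below every other mouse, which held for 4.33% of the 9431 genes tested, and for Ly6g every BRQ mouse was above every NTB mouse, which held for 23.9%.

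By edgeR's quasi-likelihood test with Benjamini-Hochberg adjustment over all genes, 3 of the 4 members tested fell from NTB to vehicle, where 9.89% of 9431 genes were called. The log2 fold change was -1.30 for Ly6c1 (SE 0.16, adjusted p = 0.0028), -1.45 for Ly6c2 (SE 0.15, adjusted p = 0.00207) and -0.77 for Ly6g (SE 0.14, adjusted p = 0.00755). The same 3 rose from vehicle to BRQ, where 0.0636% of genes were called, by 1.43 for Ly6c1 (SE 0.16, adjusted p = 0.00563), 1.48 for Ly6c2 (SE 0.15, adjusted p = 0.00322) and 1.10 for Ly6g (SE 0.14, adjusted p = 0.0135). Both contrasts use the same vehicle mice, so they are not independent. Between BRQ and NTB none of the 4 was called by edgeR or DESeq2, with 1 at an unadjusted p under 0.05 (Ly6g, log2 0.33, adjusted p = 0.209) and 4.07% of all genes called. Ly6e, the fourth member tested, changed by -0.14 (SE 0.15, adjusted p = 0.64) and 0.19 (SE 0.15, adjusted p = 0.815), and Ly6a and Ly6d were too low to be tested.

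Of the 6 genes called from vehicle to BRQ in this class, 3 were the Ly6 members and all 6 rose. The other 3, chosen here because they share that call, were Chil3, a chitinase-like protein of neutrophils (log2 1.74, adjusted p = 0.0147), Gpr141 (1.37, adjusted p = 0.0135) and Gm1673 (2.16, adjusted p = 0.0354). With the pool as a block 30 genes were called, and DESeq2 called 26. Leaving out BRQ pool 1 took Ly6c1 to an adjusted p of 0.0519 and Ly6g to 0.0829, and Ly6g was at 0.0844 without vehicle pool 2 and 0.07 without vehicle pool 3. With mice called by a plain ratio of hashtag counts the 3 changes from vehicle to BRQ were 1.14, 1.08 and 0.46 for Ly6c1, Ly6c2 and Ly6g, with adjusted p of 0.46, 0.39 and 0.864, and the fall of Ly6g from NTB to vehicle was -0.31 (adjusted p = 0.596).

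Depth and the makeup of the class moved with the groups. The median depth was 6811 to 8003 UMIs per cell in NTB, 1683 to 4123 in vehicle mice and 2894 to 5310 in BRQ mice. Thinned to 3000 UMIs, the share of cells with a Ly6g UMI was 62.5% of 1550 NTB cells, 45.3% of 492 vehicle cells and 63.0% of 859 BRQ cells, where the shares before thinning were 74.2%, 35.1% and 58.2%. Thinning left out 249 of 1799 NTB, 751 of 1243 vehicle and 637 of 1496 BRQ cells as too shallow. The thinned shares thus cover a different part of the cells in each group. For Ly6c2 the thinned shares were 47.0%, 29.7% and 53.2%, and those before thinning were 69.5%, 23.3% and 51.1%. Beside them, 6.25% of 464 thinned erythroid/MEP-like cells and 2.61% of 996 thinned HSC/MPP-like cells held a Ly6c2 UMI. Cluster 3 held 46.4% to 53.6% of the neutrophil-like cells of an NTB mouse and 4.6% to 12.3% of a vehicle mouse, whereas cluster 1 held 4.4% to 7.0% and 48.6% to 81.8%. In BRQ mice cluster 1 held 35.3% to 69.8% and cluster 3 held 5.4% to 22.8%. Ltf, the granule gene whose pattern across classes was close to that of Ly6g, was at 4540 to 5820 CPM in NTB, 1980 to 2070 in vehicle mice and 3570 to 4540 in BRQ mice. Of other neutrophil markers, Chil3 was likewise lowest in vehicle mice, at 270 to 502 CPM against 1360 to 1570 in NTB and 1200 to 1730 in BRQ mice. Camp, Ngp and Retnlg did not share that order. Camp was at 43600 to 46900, 10700 to 23900 and 7410 to 24500 CPM and Ngp at 27600 to 36000, 10700 to 17500 and 9680 to 21700, with vehicle and BRQ mice overlapping. Retnlg was at 723 to 939 CPM in NTB and higher in both tumor groups, at 2610 to 8160 and 3790 to 10100. The part of depth and makeup in the result was not tested beyond the fits of single clusters. NTB mice gave 138, 527 and 1134 neutrophil-like cells, vehicle mice 601, 142 and 500, and BRQ mice 562, 450 and 484.

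Because the clusters differed in share, each was also fitted by itself, a choice made after the shares were seen. In cluster 1, the cluster with the lowest depth (medians of 1232 to 2170 UMIs per mouse), Ly6g was at 1026 and 1083 CPM in NTB pools 2 and 3, at 562, 557 and 450 in vehicle and at 1039, 1507 and 1213 in BRQ mice. Ly6c2 was at 240 and 335 CPM in NTB, at 124, 35.2 and 69.9 in vehicle and at 296, 281 and 256 in BRQ mice. Some of these Ly6c2 values rest on few counts: 15 and 35 UMIs in 37 and 50 cells of the NTB mice, and 7 UMIs in vehicle pool 2. Vehicle mice were below all others for both, as for 5.38% of the genes tested. All 3 members were called from NTB to vehicle (1.71% of 4855 genes called), with log2 changes of -1.51 for Ly6c1 (SE 0.41, adjusted p = 0.0415), -1.79 for Ly6c2 (SE 0.33, adjusted p = 0.00116) and -0.99 for Ly6g (SE 0.19, adjusted p = 0.00284). They were called again from vehicle to BRQ (4.86% of genes called), with 1.58 for Ly6c1 (SE 0.23, adjusted p = 8.35e-06), 1.77 for Ly6c2 (SE 0.21, adjusted p = 1.66e-07) and 1.33 for Ly6g (SE 0.15, adjusted p = 7.73e-08).

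Cluster 4 also held some of the GMPs in which the members were chosen. Its neutrophil-like cells are those under the Ms4a3 limit and are not independent of these GMPs. In cluster 4, the cells with the lowest Ly6g of the class, Ly6c2 was at 179, 112 and 168 CPM in NTB, 57.4 and 29.6 in vehicle pools 1 and 3 and 152, 155 and 154 in BRQ mice. It fell by 1.55 on the log2 scale (SE 0.19, adjusted p = 2.67e-06) where 6.89% of 8277 genes were called, and rose by 1.43 (SE 0.20, adjusted p = 3.87e-05) where 1.11% were called. Ly6c1 changed by -1.40 (adjusted p = 9.38e-05) and 1.20 (adjusted p = 0.0039). Ly6g was at 184, 105 and 107 CPM in NTB, 65.9 and 31.2 in vehicle mice and 112, 128 and 43.7 in BRQ mice, so vehicle and BRQ mice overlapped. It fell by 1.08 on the log2 scale from NTB to vehicle (SE 0.26, adjusted p = 0.00984), and its difference of 0.67 from vehicle to BRQ (SE 0.27, adjusted p = 0.272) was called only with the pool as a block (0.79, adjusted p = 0.0318), as was that between BRQ and NTB (-0.41, adjusted p = 0.288; with the block -0.59, adjusted p = 0.0115).

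In clusters 3 and 9 no member passed the test. Each kept 2 vehicle mice, of which pool 3 gave 23 and 21 cells. From NTB to vehicle 0.622% of 6110 genes were called in cluster 3 and 2.58% of 3059 in cluster 9, and 2 of 4 members had an unadjusted p under 0.05 in each. From vehicle to BRQ 0.0491% and 0.196% were called, and 3 of 4 members had an unadjusted p under 0.05 in each. Ly6c2 in cluster 9 was at 591 and 576 CPM in NTB pools 2 and 3, 330 and 301 in vehicle pools 1 and 3 and 573, 606 and 665 in BRQ mice, again with vehicle below, as for 14.1% of the genes tested (log2 -0.75, adjusted p = 0.0706, and 0.70, adjusted p = 0.202). In cluster 3 Ly6c2 was at 280, 278 and 320 CPM in NTB, 197 and 161 in vehicle mice and 339, 300 and 321 in BRQ mice (log2 -0.55, adjusted p = 0.192, and 0.66, adjusted p = 0.11). Ly6g in cluster 9 was at 2781 and 2458 CPM in NTB, 2490 and 1787 in vehicle mice and 3222, 2667 and 2578 in BRQ mice, where NTB and vehicle overlapped (log2 -0.16 and 0.15). In cluster 3 it was at 1073, 1003 and 915 CPM in NTB, 966 and 766 in vehicle mice and 1481, 1308 and 957 in BRQ mice (log2 -0.09 and 0.41).

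The response of Ly6g differed between clusters when the difference itself was tested in 1 edgeR fit with the mouse as a block (7 mice, a fit added after the data were seen). The 7 mice were NTB pools 2 and 3, vehicle pools 1 and 3 and the 3 BRQ mice. Vehicle pool 3 held 23 cells in cluster 3 and 21 in cluster 9. The log2 change from vehicle to BRQ was larger by 0.92 in cluster 1 than in cluster 3 (SE 0.21, adjusted p = 0.00254, 1.76% of 6805 genes called) and by 1.11 in cluster 1 than in cluster 9 (SE 0.23, adjusted p = 0.00796, 0.615% of 4875 genes called). Against cluster 4 it was larger by 0.64 (SE 0.23, adjusted p = 0.183, 1.25% of 7755 genes called). Ly6c1, Ly6c2 and Ly6e did not pass this test in any of the 3 pairs of clusters. Between BRQ and NTB no member was called by edgeR in any of the 4 clusters without the pool as a block, with 1 at an unadjusted p under 0.05 (Ly6g in cluster 3, adjusted p = 0.255), and with it Ly6g was called in cluster 4, as given above. The genes called there were 0.0206%, 5.74%, 6.55% and 5.85% of those tested in clusters 1, 3, 4 and 9. DESeq2 was not run on single clusters.

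**Figure D3:**
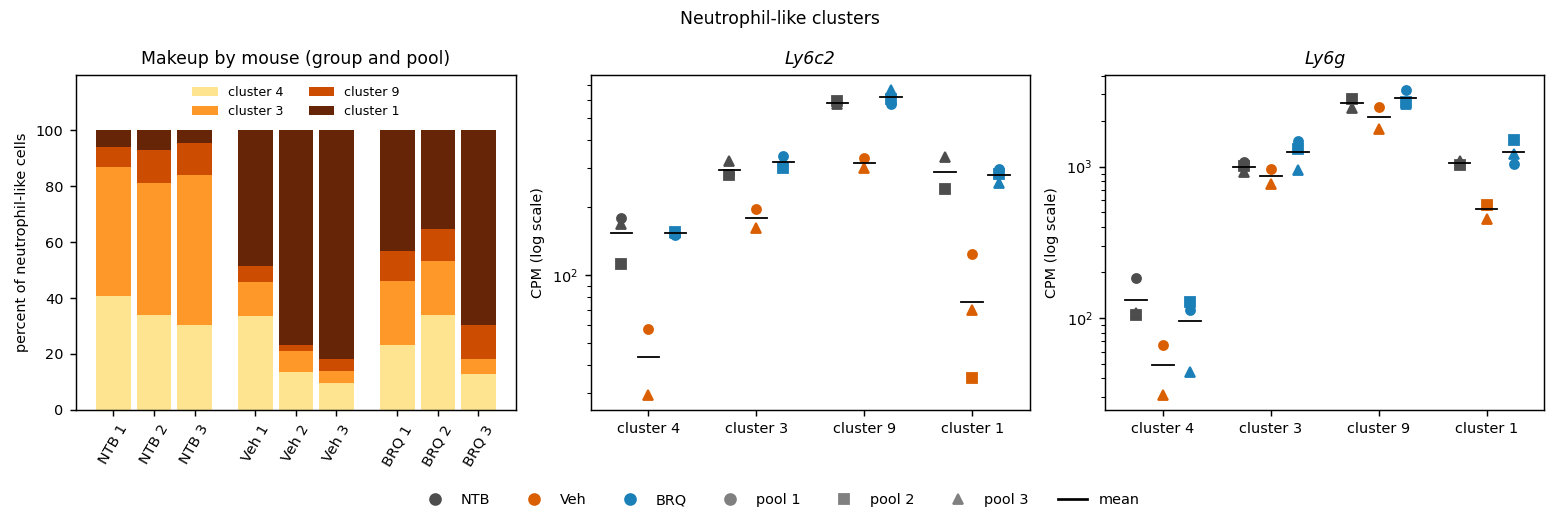
Left, share of each mouse's neutrophil-like cells in clusters 4, 3, 9 and 1 (y axis, percent); middle and right, Ly6c2 and Ly6g in CPM (log scale) by cluster, with 1 point per mouse with at least 20 cells in the cluster, colored by group, and a line at the group mean. Cluster 1 holds 4.4% to 7.0% of the cells of NTB mice and 48.6% to 81.8% of vehicle mice, and within it the vehicle mice lie below all others for both genes.

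Monocyte/MDP-like cells, the monocytes and monocyte-dendritic progenitors, had higher Ly6c levels and smaller differences. Ly6c1 was at 260, 302 and 351 CPM in NTB, 194, 214 and 176 in vehicle mice and 242, 354 and 229 in BRQ mice. Ly6c2 was at 549, 469 and 647 CPM in NTB, 421, 352 and 349 in vehicle mice and 494, 614 and 490 in BRQ mice. Ly6e was at 931, 1049 and 1105 CPM in NTB, 830, 825 and 773 in vehicle mice and 1159, 1061 and 1201 in BRQ mice. In each gene the vehicle mice were below all others, as for 5.73% of the genes tested, and NTB and BRQ mice overlapped.

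From NTB to vehicle 3 of 4 members tested fell, where 3.12% of 9542 genes were called by edgeR. The log2 change was -0.65 for Ly6c1 (SE 0.14, adjusted p = 0.0143), -0.54 for Ly6c2 (SE 0.12, adjusted p = 0.0162) and -0.33 for Ly6e (SE 0.09, adjusted p = 0.0483). Under BRQ, against vehicle, Ly6e alone rose, by 0.37 (SE 0.09, adjusted p = 0.017), where 5.14% were called. The differences of 0.40 for Ly6c1 (adjusted p = 0.0963) and 0.38 for Ly6c2 (adjusted p = 0.0582) passed with the pool as a block (adjusted p = 0.0299 and 0.0123). Between BRQ and NTB no member was called by edgeR or DESeq2, none had an unadjusted p under 0.05, and 2.75% of genes were called. Ly6g was low in these cells, at a mean of 14.5 CPM, and was not called from NTB to vehicle (-0.43, adjusted p = 0.651) or from vehicle to BRQ (0.33, adjusted p = 0.65).

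Several of these calls depended on single mice. Without NTB pool 2 the fall of Ly6c1 had an adjusted p of 0.0675, and without NTB pool 3 those of Ly6c1 and Ly6c2 were at 0.0924 and 0.128. Without vehicle pool 2 or 3 the fall of Ly6c2 was at 0.0892 and 0.0602. The fall of Ly6e was not called in 8 of 16 alternatives, and its rise had an adjusted p of 0.0551 without vehicle pool 2, 0.0892 without vehicle pool 3 and 0.0748 without BRQ pool 1. The median depth was higher in vehicle mice (21142 to 23960 UMIs) than in NTB (13790 to 17655) and BRQ mice (15330 to 18698), and of 11 T and NK cell markers, 6 of them detected and Cd3e, Trbc2, Trac, Gzma and Il2rb at 0, the sum was 128 to 187 CPM in vehicle against 188 to 228 and 223 to 236. Their part in the result was not tested.

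The change of Ly6c2 was larger in the neutrophil-like class, as summed over its clusters, than in monocyte/MDP-like cells. In 1 edgeR fit of both classes with the mouse as a block, the log2 change from NTB to vehicle was lower by 0.93 in neutrophil-like cells (difference -0.93, SE 0.18, adjusted p = 0.00891), where 2.90% of 10365 genes differed between the classes, and that from vehicle to BRQ was higher by 1.09 (SE 0.17, adjusted p = 0.0471), where 0.0193% did. The same differences for Ly6c1 were -0.64 (SE 0.19, adjusted p = 0.0734) and 1.03 (SE 0.18, adjusted p = 0.0752), and those for Ly6g -0.35 (SE 0.41, adjusted p = 0.733) and 0.84 (SE 0.35, adjusted p = 0.883). The cluster shares of the neutrophil-like class differed between groups. By cluster, Ly6c2 changed by -1.79 and 1.77 in cluster 1 and by -1.55 and 1.43 in cluster 4, but by -0.55 and 0.66 in cluster 3 and by -0.75 and 0.70 in cluster 9, beside -0.54 and 0.38 in monocyte/MDP-like cells. Single clusters were not tested against monocyte/MDP-like cells.

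**Figure D4:**
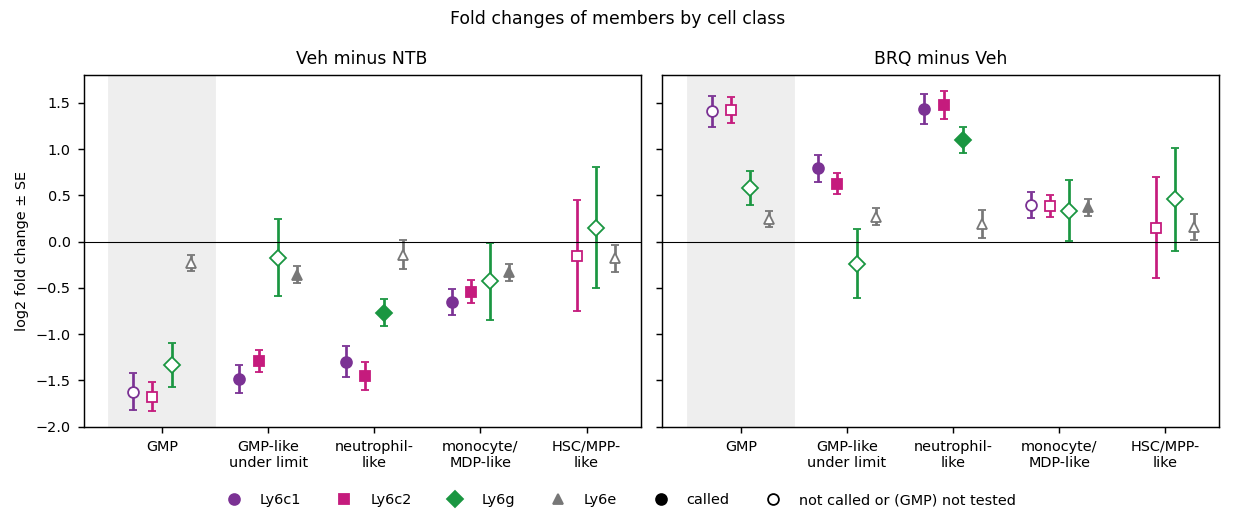
Log2 fold change ± SE (y axis) of Ly6c1, Ly6c2, Ly6g and Ly6e in 5 cell classes (x axis) from NTB to vehicle (left) and from vehicle to BRQ (right), with filled symbols for changes called at an adjusted p under 0.05 and a gray band over the untested GMP values. In neutrophil-like cells 3 of the 4 genes are called in each panel, and in HSC/MPP-like cells none of the 3 plotted (Ly6c1 was too low to test) is.

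GMP-like cells under the Ms4a3 limit, the remaining cells of the clusters that hold most GMPs, showed the Ly6c changes with all 3 contrasts called. Ly6c1 was at 58.6, 68.6 and 81.9 CPM in NTB, 23.5, 34.3 and 28.1 in vehicle mice and 43.0, 61.1 and 47.6 in BRQ mice. Ly6c2 was at 126, 116 and 177 CPM in NTB, 56.9, 67.4 and 61.0 in vehicle mice and 101, 100.3 and 106 in BRQ mice. The vehicle mice were below all others for both genes, as for 8.05% of the genes tested, and for Ly6c2 the BRQ mice stood between the groups without overlap, as for 1.06%. These cells share their clusters and their mice with the GMPs in which the members were chosen, and are not independent of them.

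Of 4 members tested, 3 fell from NTB to vehicle, where 21.1% of 10565 genes were called by edgeR: Ly6c1 by 1.48 on the log2 scale (SE 0.15, adjusted p = 1.53e-07), Ly6c2 by 1.29 (SE 0.12, adjusted p = 5.3e-08) and Ly6e by 0.36 (SE 0.09, adjusted p = 0.0067). Without NTB pool 3 the fall of Ly6e had an adjusted p of 0.0763. Under BRQ 2 of 4 rose against vehicle, where 6.78% were called: Ly6c1 by 0.79 (SE 0.15, adjusted p = 0.00104) and Ly6c2 by 0.63 (SE 0.12, adjusted p = 0.00123). With mice called by the ratio of hashtag counts the rise of Ly6c1 was 0.62 (adjusted p = 0.107). Ly6e differed by 0.27 (SE 0.09, adjusted p = 0.0753; with the pool as a block, adjusted p = 0.0087). Between BRQ and NTB 2 of 4 were lower in BRQ mice, where 15.8% were called: Ly6c1 by -0.69 (SE 0.13, adjusted p = 0.000419) and Ly6c2 by -0.66 (SE 0.11, adjusted p = 0.000123). Ly6g was not called in any contrast (-0.17, -0.24 and -0.41). The sums of 12 monocyte markers (242 to 273 CPM in vehicle, 299 to 315 in NTB and 279 to 395 in BRQ mice) and of 9 basophil and mast cell markers (86.7 to 133, 146 to 179 and 192 to 196, with Cma1 and Tpsb2 at 0) were also lowest in vehicle mice. Sums of 14 neutrophil markers were highest in NTB mice, at 28800 to 32000 CPM against 15600 to 19400 in vehicle and 14600 to 21800 in BRQ mice. So were those of 9 macrophage markers (240 to 342, 145 to 172 and 113 to 202), and those of T and NK cell and erythroid markers. Stromal and endothelial markers were lowest in NTB mice. The part of all these markers in the result was not tested.

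In HSC/MPP-like cells no difference in a member was detected by edgeR or DESeq2 in any of the 3 contrasts, and none of the 4 tested had an unadjusted p under 0.05. The test used 8 mice, since vehicle pool 2 held too few of these cells. Ly6a was at 5.68, 4.37 and 7.05 CPM in NTB, 3.69 and 8.82 in vehicle pools 1 and 3 and 6.89, 6.07 and 9.37 in BRQ mice, and the groups overlapped (log2 -0.30, SE 0.61, from NTB to vehicle and 0.61, SE 0.54, from vehicle to BRQ). Ly6e changed by -0.18 (SE 0.15) and 0.16 (SE 0.14). Of 9954 genes 0.974% were called from NTB to vehicle, 0.0301% from vehicle to BRQ and 0.774% between BRQ and NTB.

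Of 37 other genes of the Ly6 and uPAR superfamily in the files, at most 3 passed the filter on low counts in a class. In neutrophil-like cells 3 were tested and all 3 fell from NTB to vehicle, where 3.28% of all genes fell: Plaur, the urokinase receptor (log2 -0.61, adjusted p = 0.0483), Cd177, a neutrophil adhesion antigen (-0.50, adjusted p = 0.045), and Ly6g5b (-1.71, adjusted p = 0.0223). Under BRQ none was called against vehicle, with all 3 at an unadjusted p under 0.05 and a median log2 change of 0.82 beside -0.02 for all genes. In cluster 1 alone 2 could be tested. Cd177 fell there from NTB to vehicle by 0.84 on the log2 scale (adjusted p = 0.0105), where 1.07% of all genes fell, and Plaur was not called. From vehicle to BRQ Plaur rose by 1.44 (adjusted p = 0.000153) and Cd177 by 1.01 (adjusted p = 2.72e-06), where 4.02% of all genes rose. In clusters 3, 4 and 9, with 2 tested in each, none was called by edgeR in any contrast, with 1 in each at an unadjusted p under 0.05 from NTB to vehicle and 0 in the other contrasts, and the median change from vehicle to BRQ was -0.06, 0.16 and -0.02. In the monocyte/MDP-like, HSC/MPP-like and GMP-like classes, where 2, 1 and 3 could be tested, none was called by edgeR and none had an unadjusted p under 0.05.

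Ly6 genes are known as interferon targets in several cell types, so 42 interferon-stimulated genes were set beside them. In neutrophil-like cells 11 of 32 tested rose from NTB to vehicle and none fell, with a median log2 change of 1.27 where 6.62% of all genes rose. Among them were Ifitm1 (5.44, adjusted p = 0.0028), Oasl2 (3.76, adjusted p = 0.0295), Gbp2 (3.63, adjusted p = 0.0131) and Rtp4 (3.35, adjusted p = 0.0112). With the pool as a block 19 rose. These are sums over clusters whose shares differed between the groups, as given above. Under BRQ no gene of the list was called against vehicle (4 at an unadjusted p under 0.05, median -0.12), and between BRQ and NTB 11 of 32 were higher in BRQ mice (median 1.39, 19 with the block), where 3.40% of all genes were. Within single clusters the median log2 change of the list from NTB to vehicle was below 0, at -0.14 in cluster 1, -0.06 in cluster 3, -0.09 in cluster 4 and -0.38 in cluster 9. For BRQ against NTB it was, in the same order, -0.01, 0.04, -0.13 and -0.40, with 0, 3, 2 and 2 genes of the list called higher in BRQ mice and 1 called lower, in cluster 4. In cluster 1, of 27 tested, 2 rose and 2 fell from NTB to vehicle, where 0.6385% of all genes rose and 1.07% fell. From vehicle to BRQ 5 rose and 2 fell there (median 0.26), where 4.02% rose and 0.8445% fell, among them Rsad2 (1.94, adjusted p = 1.51e-05) and Ifitm1 (-1.22, adjusted p = 4.31e-06). In clusters 3, 4 and 9, with 11, 15 and 10 tested, Ifitm2 and Ifitm3 rose from NTB to vehicle in each, Ifi27l2a fell in cluster 9, and none was called from vehicle to BRQ (0, 2 and 4 at an unadjusted p under 0.05, medians between -0.23 and 0.10). The genes that rose from NTB to vehicle there were 0.5892%, 4.49% and 1.83% of all tested.

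In GMP-like cells under the limit 2 of 24 interferon-stimulated genes rose and 9 fell from NTB to vehicle, where 11.5% of all genes rose and 9.64% fell: Ifi44 changed by -2.89 (adjusted p = 0.00138), Ifitm1 by 2.83 (adjusted p = 2.96e-07), Cmpk2 by -2.33 (adjusted p = 0.00515) and Oasl1 by -2.29 (adjusted p = 0.00066). Against vehicle none was called under BRQ, with 6 at an unadjusted p under 0.05. Between BRQ and NTB 3 were higher and 6 lower in BRQ mice, where 7.82% and 7.998% of all genes were. In monocyte/MDP-like cells 2 of 20 rose (Ifitm1 by 2.32, adjusted p = 2.63e-05, and Gbp7 by 0.58, adjusted p = 0.0439) and 3 fell from NTB to vehicle (Ifi44, Ifi27l2a and Irf9, by 2.44, 2.37 and 0.89), where 1.98% of all genes rose and 1.14% fell, and 1 rose from vehicle to BRQ (Lgals3bp, 0.84, adjusted p = 0.0139), where 2.19% rose. In HSC/MPP-like cells 2 of 31 rose (Ifitm1 by 1.33 and Ifitm2 by 0.62) and 1 fell (Ifi44, by 0.86) from NTB to vehicle, where 0.643% of all genes rose and 0.331% fell, and from vehicle to BRQ none was called, with 4 at an unadjusted p under 0.05. Between BRQ and NTB 1 was higher and 2 lower in monocyte/MDP-like cells, beside 1.31% and 1.436% of all genes. In HSC/MPP-like cells 2 were higher and 1 lower, beside 0.3818% and 0.3918%.

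Genes of GPI anchor synthesis and transfer, the step that fixes Ly6 proteins to the membrane, were a list of 30. In neutrophil-like cells none of 24 tested rose and 2 fell from NTB to vehicle, where 6.62% of all genes rose and 3.28% fell, Tmem8 by 1.10 on the log2 scale (adjusted p = 0.00696) and Mppe1 by 0.69 (adjusted p = 0.0219), and from vehicle to BRQ none was called, with 1 at an unadjusted p under 0.05. Between BRQ and NTB Tmem8 alone was called, lower in BRQ mice (-0.99, adjusted p = 0.0185), where 0.668% of genes were lower. These are sums over clusters whose shares differed between the groups. By edgeR without the pool as a block, none of the 10, 17 and 3 tested in clusters 1, 3 and 9 was called in any contrast. In cluster 4, with 22 tested, Tmem8 alone was called. It fell from NTB to vehicle (-0.83, adjusted p = 0.025) and was lower in BRQ than in NTB mice (-0.85, adjusted p = 0.0101), where 2.39% and 2.585% of all genes were lower. In monocyte/MDP-like cells none of 25 was called from NTB to vehicle, with 6 at an unadjusted p under 0.05, and Pigf fell by 0.97 from vehicle to BRQ (adjusted p = 0.00645), where 2.94% of genes fell. In GMP-like cells under the limit Pigf and Piga rose from NTB to vehicle (1.01 and 0.75) and Tmem8 and Mppe1 fell (-0.82 and -0.43), of 27 tested, beside 11.5% and 9.64% of all genes. Between BRQ and NTB Pigf was higher there (0.75, adjusted p = 0.0422) and Tmem8 lower (-0.66, adjusted p = 0.0244), beside 7.82% and 7.998% of all genes. In HSC/MPP-like cells none of 24 was called in any contrast, with 2, 1 and 0 at an unadjusted p under 0.05.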

How the data were processed

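The authors deposited UMI counts per gene and hashtag for each 10x pool, made with Cell Ranger 6.0.0 against mm10 per the labels. How multi-mapped reads were handled was not given in the sources used here. From these counts, barcodes with at most 15% mitochondrial UMIs and 500 to 7500 detected genes were kept, and mice were assigned with HTODemux (Seurat 5.3.0, quantile 0.99). The kept barcodes were clustered with scanpy 1.11.5 (2000 variable genes, 30 components, 20 neighbours, Leiden resolution 0.8), leaving out the 6 members. Hashtag doublets and barcodes without a hashtag call were then left out. Counts were summed per mouse and class and tested with edgeR 4.0.16 (R 4.3.3), calling an adjusted p under 0.05. Both edgeR scripts were tested on simulated data.

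The members and gene lists were chosen with earlier results of these data known. Named genes were the members, their 5 nearest genes and up to 4 called genes of each list with the largest change. Same-numbered mice shared a pool and a lane. The main fits of groups left the pool out, and fits with the pool as a block were run as an alternative. Within a pool, deviations from group means correlated at a median r of 0.0928 in GMPs, 0.139 in neutrophil-like, 0.074 in monocyte/MDP-like, 0.0548 in HSC/MPP-like and 0.0417 in GMP-like cells under the limit, and below 0 between pools. Sequences came from RefSeq (GRCm38.p6). Intervals cover counting error only. Mice of a group are separate animals.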

Additional observations from a re-analysis of the deposited data

Results flagged for a closer look

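The effect on Ly6c2 differed between 2 cell classes, and that on Ly6g between clusters of 1 class, in tests of the difference itself. For Ly6c2 the log2 change from NTB to vehicle differed by -0.93 between neutrophil-like and monocyte/MDP-like cells (edgeR, mouse as a block, n = 9 mice, adjusted p = 0.00891), and that from vehicle to BRQ by 1.09 (adjusted p = 0.0471), in sums over clusters whose shares differed between groups. For Ly6g the change from vehicle to BRQ was larger by 0.92 in the neutrophil-like cluster 1 than in cluster 3 (n = 7 mice, of which 2 vehicle mice, adjusted p = 0.00254) and by 1.11 than in cluster 9 (adjusted p = 0.00796), while its difference of 0.64 from cluster 4 (adjusted p = 0.183) and those between the 2 classes (-0.35, adjusted p = 0.733, and 0.84, adjusted p = 0.883) did not pass. In cluster 1 the Ly6g level of every BRQ mouse was above that of every vehicle mouse. Cluster 1 had the lowest depth of the class, and the part of depth in these differences was not tested.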

How the results depend on the processing

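Ly6c2 in GMPs kept its direction from NTB to vehicle and from vehicle to BRQ under every alternative run. From NTB to vehicle (log2 -1.67) it was -1.28 at an Ms4a3 limit of 2.5, -2.11 and -1.22 in GMPs of clusters 0 and 2 alone, and between -1.96 and -1.52 with 1 mouse left out. From vehicle to BRQ (1.42) it was 1.10 at that limit, 1.03 in the cells of GMP-like clusters, 1.84 and 0.92 in clusters 0 and 2, and between 1.27 and 1.71 with 1 mouse left out. Ly6g in GMPs reversed from vehicle to BRQ without barcodes marked by Scrublet (-0.26) and in the cells of GMP-like clusters (-0.069), and between BRQ and NTB with hashtag calls by tag ratio (1.35). The cause was not tested.

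In neutrophil-like cells 3 members were called from NTB to vehicle and 3 from vehicle to BRQ. Clusters 3 and 9 alone gave 0 in both contrasts, the tag ratio gave 0 from vehicle to BRQ, and leaving out 1 mouse gave 1 to 3 there. In monocyte/MDP-like cells the count from NTB to vehicle (3) was 0 to 3 with 1 mouse left out. From vehicle to BRQ (1) it was 3 with the pool as a replicate block, 3 without a filter on low counts, 2 without Scrublet barcodes and 0 to 3 with 1 mouse left out, and between BRQ and NTB (0) it was 0 to 1. In GMP-like cells under the limit the tag ratio gave 1 from vehicle to BRQ (2). With the pool as a block all genes called from vehicle to BRQ numbered 30 in neutrophil-like cells (6 without it). The block changed no call of a member tested other than those given in the report. Of the alternative values of the Ly6c2 change in GMPs and of the counts of members, 240 stayed within the spread between mice or within 1.5 times the count and 30 did not. Of the other alternative values, 474 kept their call or stayed within that spread, 39 kept their direction and lost their call, 32 moved further, and the 3 named above reversed.

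The fits of GMPs at an Ms4a3 limit of 3.5, of GMP, monocyte/MDP-like and GMP-like cells with the limits of 500 and 7500 read as UMIs, and of monocyte/MDP-like and HSC/MPP-like cells by tag ratio could not be run, since too few cells or mice remained. Ly6a and Ly6d did not pass the filter on low counts in neutrophil-like cells and were not tested there.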
